A study of Mus musculus with 9 samples.

Results

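The 10 chemokine genes Cxcl1, Cxcl9, Cxcl10, Cxcl12, Cxcl13, Cxcl16, Ccl5, Ccl6, Ccl9 and Ccl24 were read in mouse liver by their rows among the 32285 genes measured. A gene was taken as readable when its mean over the 9 libraries was at least 10 normalized counts, that is, reads per gene scaled by the size factor of their library. Of the 10 genes, 9 were readable, and Ccl5 was too low to read, with a mean of 5.64. Liver RNA came from Tet-OFF mice, in which tamoxifen activates a Cre (CreERT2, on a piggyBac CAG transgene) that switches on the transactivator tTA from Rosa26, and tTA drives a tetO-Venus-ires-mCherry reporter until a tetracycline binds it. The 3 groups of 3 libraries were Control mice given tamoxifen alone, Dox mice given tamoxifen and doxycycline hyclate, and Tc mice given tamoxifen and tetracycline hydrochloride. Each drug was given to 4-week-old mice at 2 mg/mL in drinking water with sucrose for 7 days, and what the Control mice drank is not given in the sources used here. Since the reporter is on in the controls and repressed by either drug, an effect of the drug and an effect of repressing the transgene cannot be told apart. The mice were derived from genetically modified embryonic stem cells of mixed C57BL/6 and 129 background. The paper describes separate stem cell lines for the Cre, tTA and reporter alleles. The sources used here do not say that the background was uniform across the groups.

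Chemokines are small secreted proteins that bind G protein-coupled receptors and guide leukocytes along a gradient. In liver they are made by Kupffer cells (the resident macrophages), sinusoidal endothelial cells, stellate cells and hepatocytes, some steadily and others after signals such as IL-1, TNF or interferon gamma, which act through NF-kB and STAT factors. Homeostatic members hold resident cells in place, and inducible members call neutrophils, T cells, B cells or eosinophils.

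Recovered reads on genes ranged from 7426136 to 12183041 per library. In every group, library 3 resembled a mixture of libraries 1 and 2. For the chemokine genes, library 3 lay between libraries 1 and 2 for 8 of the 9 readable genes in Control, 9 in Dox and 6 in Tc. The p-values from all 9 libraries may therefore be too small, and for genes named as called with all 9 libraries, and for lists with calls, the outcome without libraries 3 is given. The paper calls the samples of these groups independent and biological replicates. The labels do not say that libraries of a group came from separate mice, so p-values measure the spread between these libraries. In bulk liver, fewer cells of a type and less RNA per cell cannot be told apart.

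The sequences upstream of 4 of these genes are shown because Cxcl1, Cxcl13 and Cxcl9 varied most across the libraries and Cxcl10, the neighbour of Cxcl9, took another course than it did. RefSeq promoters (GRCm38.p6, from 250 bases before to 50 bases after the start site) were matched for 7 of the 10 genes. They were searched on both strands for the kappaB consensus of NF-kB, the interferon-stimulated response element GAAANNGAAA (ISRE), the STAT site TTCNNNGAA (GAS) and the AP-1 site TGANTCA. Below, the 250 bases before each start are printed 5′ to 3′ on the strand of the gene, and capitals mark these matches. Cxcl1 lies at chr5:90890995-90891244 (plus strand), Cxcl10 at chr5:92348890-92349139 (minus strand), Cxcl9 at chr5:92328080-92328329 (minus strand) and Cxcl13 at chr5:95956689-95956938 (plus strand).
Cxcl1: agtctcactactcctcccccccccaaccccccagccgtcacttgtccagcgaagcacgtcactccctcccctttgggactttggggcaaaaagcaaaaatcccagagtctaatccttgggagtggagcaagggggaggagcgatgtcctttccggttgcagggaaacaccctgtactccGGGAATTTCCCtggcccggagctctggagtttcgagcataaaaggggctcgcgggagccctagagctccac
Cxcl10: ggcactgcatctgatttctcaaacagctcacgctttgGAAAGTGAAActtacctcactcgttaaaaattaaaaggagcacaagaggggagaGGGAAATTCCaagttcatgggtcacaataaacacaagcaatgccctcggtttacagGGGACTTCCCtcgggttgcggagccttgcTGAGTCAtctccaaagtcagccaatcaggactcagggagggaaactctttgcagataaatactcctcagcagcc
Cxcl9: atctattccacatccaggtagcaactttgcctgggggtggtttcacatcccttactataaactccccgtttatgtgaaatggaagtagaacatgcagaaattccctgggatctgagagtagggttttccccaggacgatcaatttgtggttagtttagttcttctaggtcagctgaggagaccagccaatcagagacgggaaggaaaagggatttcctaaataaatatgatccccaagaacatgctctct
Cxcl13: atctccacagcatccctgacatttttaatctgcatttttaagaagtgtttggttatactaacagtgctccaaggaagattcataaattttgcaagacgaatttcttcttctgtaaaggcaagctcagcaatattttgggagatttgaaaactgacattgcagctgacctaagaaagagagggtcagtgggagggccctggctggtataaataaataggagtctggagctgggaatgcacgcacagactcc

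In these letters, Cxcl1 held a kappaB match on each strand that overlapped in 1 stretch, starting 71 bases before the start site. Cxcl10 held 2 kappaB matches, 159 and 103 bases before the start, an ISRE 213 bases before it and an AP-1 match 74 bases before it. Cxcl9 had no match in the printed window and an AP-1 match 31 bases after its start, and Cxcl13 had none in the whole window. Of the other promoters searched, Ccl9 held a kappaB match (35 bases before the start) and an AP-1 match (53 bases before), while Cxcl12 and Ccl6 held none. Among 32851 promoters of this length, 4.51% held a kappaB match, 3.44% an ISRE, 8.30% a GAS and 7.81% an AP-1 match. A match describes letters and is not a measured binding site.

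Against Control, the readable chemokine genes lay lower with Dox, with a median log2 fold change of -1.10 over the 9 genes beside 0.00 over all 12100 genes tested, and 8 of the 9 were below 0. The genes were chosen with earlier results of these data known. This and the later comparisons with all genes therefore describe them and are not independent tests. The 4 genes Cxcl1, Cxcl13, Cxcl16 and Ccl24 had every Dox library below every Control library, and such groups that do not overlap, in this direction, made up 17.1% of all genes. No gene was called by limma on log2(normalized count + 1), where a call needs both a change of more than 2-fold and a p under 0.05 after Benjamini-Hochberg adjustment, and 5.00% of all genes were called. At an unadjusted p under 0.05 there were 6 of 9 genes, beside 29.1% of all genes. DESeq2 on recovered reads called 4 genes, Cxcl10 higher (3.31% of all genes) and Cxcl13, Cxcl16 and Ccl24 lower (6.07%; 9.37% in either direction), and edgeR called only Cxcl13 (5.52%). Without libraries 3, no chemokine gene was called by limma (0% of all genes) or DESeq2 (1.16%), with 1 and 2 genes at an unadjusted p under 0.05.

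With Tc, the median was -0.51 beside 0.00 over all genes, and 7 of the 9 genes were below 0. Cxcl1, Cxcl16, Ccl6 and Ccl9 lay below every Control library, as 14.9% of all genes did, and Cxcl10 and Cxcl12 lay above every Control library, as 15.8% did. Limma called 0 genes (0.165% of all genes), with 3 at an unadjusted p under 0.05 (11.7% of all genes). DESeq2 called 1, Cxcl1 (1.58%), and edgeR 0 (0.174%), with 4 at an unadjusted p under 0.05. Without libraries 3 neither limma (0% of all genes) nor DESeq2 (0.0744%) called any, with 1 gene at an unadjusted p under 0.05 in each. Both drugs were compared with the same Control libraries.

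Doxycycline and tetracycline share a ring system and differ in where a hydroxyl group sits on it, and they were given here at the same dose and time. Directly compared, 1 pair over 9 genes, the Dox minus Tc median was -0.33 beside -0.02 over all genes. Limma called 0 genes (0.215% of all genes), with 0 at an unadjusted p under 0.05 (21.7% of all genes). DESeq2 called Cxcl1, higher with Dox (5.03% of all genes), and edgeR 0 (0%), with 1 gene at an unadjusted p under 0.05. Without libraries 3, limma called 0 (0%) and DESeq2 0 (0.256%), with 0 and 1 genes at an unadjusted p under 0.05. Ccl24 alone did not overlap, lower with Dox, as 12.4% of all genes were. Limma's 95% intervals of the log2 difference ran from -0.50 to 0.35 for Ccl9 and from -1.04 to 0.38 for Cxcl16, but from -0.83 to 4.20 for Cxcl1 and from -3.91 to 0.87 for Cxcl9.

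**Figure D1:**
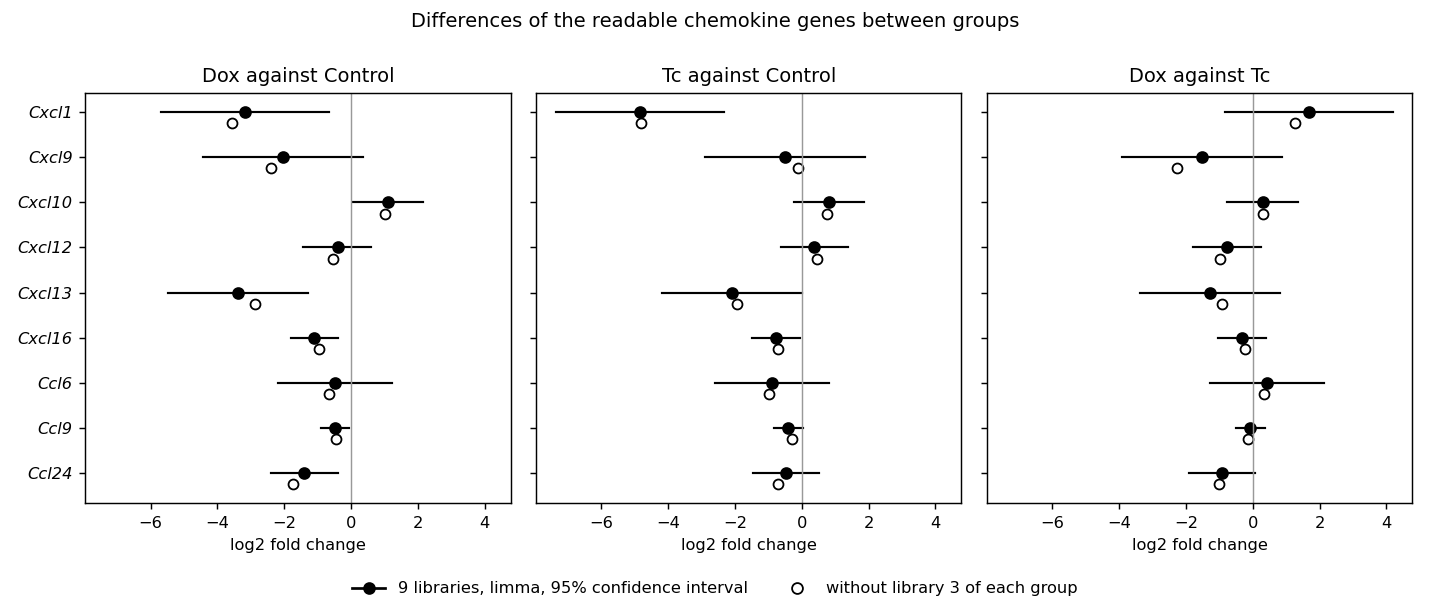
Log2 fold changes (x axis) of the 9 readable chemokine genes (y axis) in the 3 comparisons; filled points are limma values over 9 libraries with 95% confidence intervals and open points are limma values without library 3 of each group. Cxcl1 lies farthest from 0 against Control with Tc, at -4.85, and Cxcl10 lies above 0 against Control with either drug, at 1.10 and 0.81.

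Cxcl1 (ENSMUSG00000029380, chr5:90891241-90893115, plus strand), a neutrophil attractant that binds Cxcr2 on myeloid cells, varied most over the 9 libraries (SD 2.55 on the log2 scale). Its normalized counts were 533, 1055 and 792 in Control libraries 1 to 3, 9.48, 387 and 151 in Dox, and 17.6, 36.9 and 25.3 in Tc. All drug libraries lay below all Control libraries, and the Tc libraries were low together while the Dox libraries were spread over 40.8-fold. The Tc mean of 26.6 ± 9.71 (SD, n = 3) was 3.35% of the Control mean of 793 ± 261 (SD, n = 3). For Tc the limma log2 fold change was -4.85 (SE 1.10, adjusted p = 0.166), and DESeq2 gave -4.90 (SE 0.85, adjusted p = 3.47e-06), or an adjusted p = 0.0689 without libraries 3. With only Tc and Control in the limma fit, so that the Dox spread did not enter, the adjusted p was 4.41e-04, in a fit that called 2.28% of all genes. For Dox the log2 fold change was -3.17 (SE 1.10, limma adjusted p = 0.105) and -2.12 by DESeq2 (adjusted p = 0.0573; 0.589 without libraries 3). Limma called it in both drugs when either Dox replicate 1 (Dox -1.65, adjusted p = 0.0352; Tc adjusted p = 0.00400) or Dox replicate 2 (Dox -4.26, adjusted p = 0.0138; Tc adjusted p = 0.0141) was left out. Dox minus Tc was 1.69 (SE 1.10, limma adjusted p = 0.370) and 2.78 by DESeq2 (SE 0.85, adjusted p = 0.0205; 0.629 without libraries 3), and 0.60 by limma without Dox replicate 2 (adjusted p = 0.744).

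Its receptor Cxcr2 was unreadable, with a mean of 6.46. The summed level of 7 neutrophil markers ranged from 44.5 to 399.9 in Control, 3.16 to 133 in Dox and 12.7 to 109 in Tc, none of them at 0 in every library, and their part in the Cxcl1 values was not tested. Among the other Cxcr2 ligands listed, Cxcl2 had at most 16.1 normalized counts, in Dox library 2, and Cxcl5 at most 1.77. Ppbp, which yields a Cxcr2 ligand, was readable at a mean of 19.2, with at most 68.1, in Control library 2, and is described below.

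Cxcl13 (ENSMUSG00000023078, chr5:95956951-95961068, plus strand), the B cell attractant that binds Cxcr5, was measured at 40.2, 279.6 and 205 in Control, 6.32, 28.8 and 8.80 in Dox, and 9.77, 71.0 and 37.9 in Tc. Every Dox library was below the lowest Control library, whereas Tc library 2 was above it. In each group library 2 was the highest. The Dox mean of 14.6 ± 12.3 was 8.37% of the Control mean of 175 ± 122 (SD, n = 3 each). Its log2 fold change with Dox was -3.37 (SE 0.92, limma adjusted p = 0.0570), -3.59 by DESeq2 (adjusted p = 4.56e-04) and -3.63 by edgeR (adjusted p = 0.0445). Without Dox replicate 2 limma gave -3.98 (adjusted p = 0.0180). Without libraries 3 the adjusted p was 0.578 by limma and 0.233 by DESeq2. With Tc it was -2.10 (SE 0.92, limma adjusted p = 0.428). Cxcr5 was unreadable at a mean of 2.44, and 5 B and plasma cell markers summed to 37.0 to 72.5 in Control, 4.60 to 20.0 in Dox and 20.5 to 36.9 in Tc, of which 1 was readable. Their part in the Cxcl13 values was not tested.

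Cxcl9 and Cxcl10, neighbours 18.6 kb apart on chromosome 5 (chr5:92321347-92328079 and chr5:92346638-92348889, both minus strand), encode interferon-inducible ligands of Cxcr3, which calls activated T and NK cells. They did not move together. Cxcl9 (ENSMUSG00000029417) had 156, 39.8 and 121 normalized counts in Control, 68.4, 2.30 and 49.3 in Dox, and 64.4, 80.9 and 49.7 in Tc. Cxcl10 (ENSMUSG00000034855) had 21.2, 15.9 and 16.5 in Control, 17.9, 81.7 and 40.5 in Dox, and 32.2, 30.6 and 32.8 in Tc. Dox library 2 was thus the lowest of all 9 for Cxcl9 and the highest of all 9 for Cxcl10. The Tc libraries of Cxcl10 lay close together and above every Control library, with means of 31.9 ± 1.17 and 17.9 ± 2.87 (SD, n = 3 each).

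The log2 fold change of Cxcl10 was 1.10 with Dox (SE 0.46, limma adjusted p = 0.157) and 0.81 with Tc (SE 0.46, limma adjusted p = 0.557). DESeq2 gave 1.38 with Dox (adjusted p = 0.0491), which became 0.559 without libraries 3, while limma gave 1.64 without Dox replicate 1 (adjusted p = 0.0142) and 0.58 without Dox replicate 2 (adjusted p = 0.269). For Cxcl9 the values were -2.03 with Dox (SE 1.05, limma adjusted p = 0.235) and -0.51 with Tc (SE 1.05, limma adjusted p = 0.904), and without Dox replicate 2 the Dox value was -0.64 (limma adjusted p = 0.400). Cxcl10 overlaps Art3 on the opposite strand, which had a mean of 15.5. The library kit keeps the strand, but the setting used in counting is not given in the sources used here. Cxcr3 was unreadable at a mean of 3.02. Markers of T and NK cells, 7 genes of which 1 was readable, summed to 49.8 to 72.5 in Control, 9.48 to 42.6 in Dox and 21.9 to 35.1 in Tc, and their part was not tested.

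Cxcl12 (ENSMUSG00000061353, chr6:117168535-117181367, plus strand), the homeostatic ligand of Cxcr4, was the most abundant in counts. It was measured at 2389, 1977 and 2353 in Control, 3054, 741 and 2116 in Dox, and 2485, 3497 and 2774 in Tc. Dox library 2 was far below the others, and the Tc libraries lay above all Control libraries. The log2 fold change was -0.40 with Dox (SE 0.44, limma adjusted p = 0.571), with the opposite sign without Dox replicate 2 (0.19, limma adjusted p = 0.539), and 0.37 with Tc (SE 0.44, limma adjusted p = 0.817). Cxcr4 had 32.8, 48.7 and 35.6 in Control, 7.37, 34.5 and 13.2 in Dox, and 9.77, 4.50 and 12.6 in Tc. All Tc libraries of this receptor were below all Control libraries, and its log2 fold change with Tc was -2.08 by limma (adjusted p = 0.218) and -2.12 by DESeq2 (adjusted p = 0.0235; 0.947 without libraries 3).

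Cxcl16 (ENSMUSG00000018920, chr11:70453983-70459984, minus strand) is made as a membrane protein, is released by Adam10 and binds Cxcr6 on T and NKT cells. It had 129, 237 and 183 in Control, 63.2, 127 and 70.4 in Dox, and 87.9, 127 and 101 in Tc. Each drug library lay below each Control library, though only just, since the highest drug values of 127 were next to the lowest Control value of 129. Its log2 fold change with Dox was -1.10 (SE 0.31, limma adjusted p = 0.0625) and -1.08 by DESeq2 (adjusted p = 0.0169; 0.582 without libraries 3). Without Dox replicate 2 limma gave -1.40 (adjusted p = 0.00856). With Tc it was -0.77 (SE 0.31, limma adjusted p = 0.405). Adam10 had a mean of 418 and a log2 fold change with Dox of -0.39 (limma adjusted p = 0.124), and Cxcr6 was unreadable at 2.02. Zmynd15 overlaps Cxcl16 on the opposite strand and had a mean of 39.1.

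**Figure D2:**
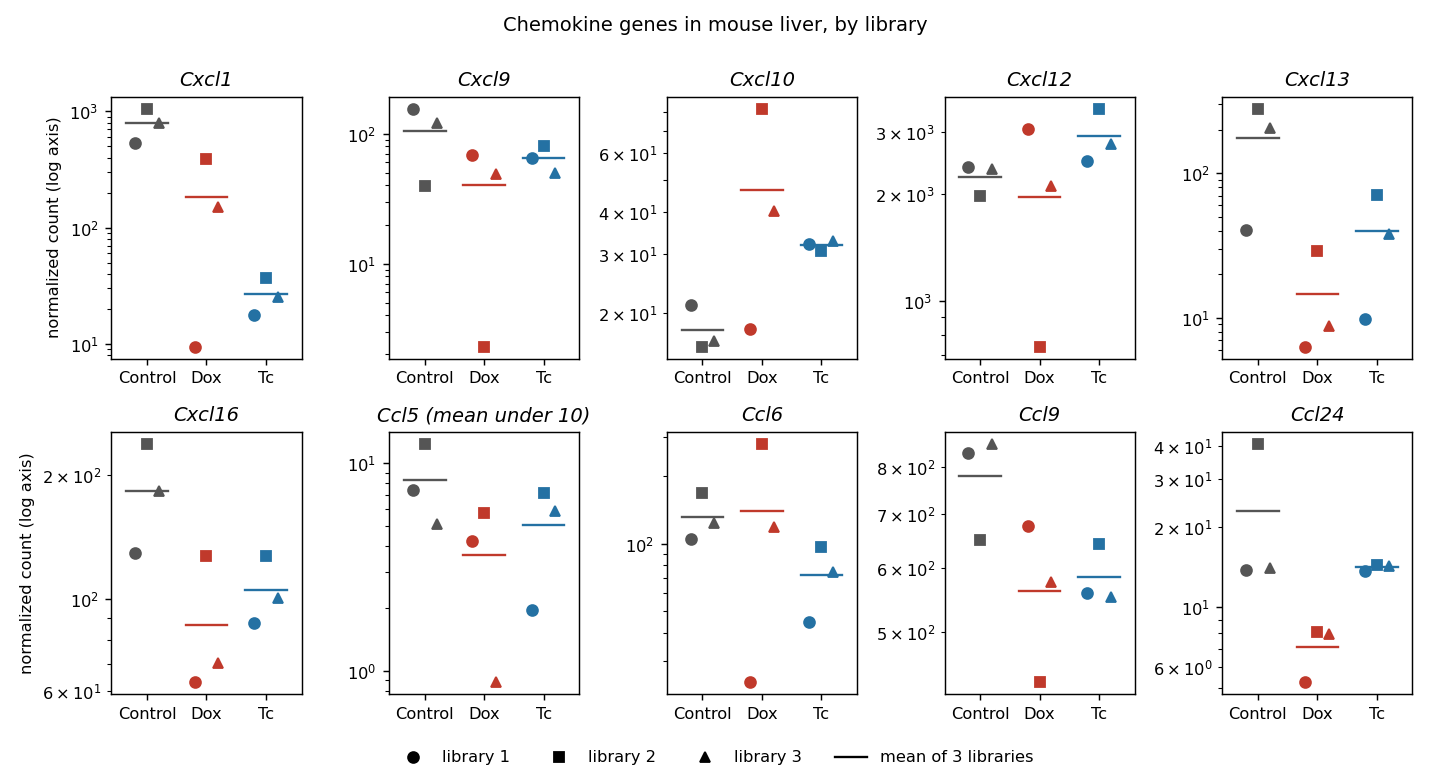
Normalized counts of the 10 chemokine genes (y axis, log scale) in each library of Control, Dox and Tc (x axis); circles, squares and triangles are libraries 1, 2 and 3 and lines are group means. Dox library 2 (the red square) is the highest library for Cxcl10 and Ccl6, at 81.7 and 278, and the lowest for Cxcl9 and Cxcl12, at 2.30 and 741.

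The CC chemokines Ccl6 and Ccl9 lie 9.24 kb apart on chromosome 11 (chr11:83587882-83593087 and chr11:83572919-83578636, both minus strand) and encode macrophage-derived ligands of Ccr1. Ccl6 (ENSMUSG00000018927) had 105, 168 and 123 in Control, 24.2, 278 and 119 in Dox, and 44.9, 97.1 and 75.0 in Tc. Ccl9 (ENSMUSG00000019122) had 831, 650.2 and 853 in Control, 675, 434 and 576 in Dox, and 558, 642 and 553 in Tc. Both genes were lower in every Tc library than in every Control library. Within Dox, Ccl6 spread over 11.5-fold and Ccl9 over 1.56-fold, and library 2 was the highest for the former and the lowest for the latter. With Dox the log2 fold change was -0.47 for Ccl6 (SE 0.75, limma adjusted p = 0.704) and -0.48 for Ccl9 (SE 0.19, limma adjusted p = 0.131). DESeq2 gave 0.09 for Ccl6 (adjusted p = 0.948), so its direction depends on the test. With Tc the values were -0.90 for Ccl6 (SE 0.75, limma adjusted p = 0.717) and -0.41 for Ccl9 (SE 0.19, limma adjusted p = 0.447). Ccr1 was unreadable at 3.95, with its highest value, 13.8, in Dox library 2.

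Ccl24 (ENSMUSG00000004814, chr5:135569937-135573049, minus strand), eotaxin-2, binds Ccr3 on eosinophils and was just readable, with a mean of 14.7. It had 13.8, 40.7 and 14.0 in Control, 5.26, 8.05 and 7.92 in Dox, and 13.7, 14.4 and 14.3 in Tc. The Dox libraries lay below all others, and Control library 2 stood above all others. The recovered reads behind the Dox values were 5 to 9 per library. Its log2 fold change with Dox was -1.40 (SE 0.44, limma adjusted p = 0.0806) and -1.71 by DESeq2 (adjusted p = 0.0291; 0.361 without libraries 3). With Tc it was -0.47 (SE 0.44, limma adjusted p = 0.749), and 0.02 without Control replicate 2 (adjusted p = 0.996). Ccr3 had 28.6, 9.73 and 25.4 in Control, 6.32, 1.15 and 1.76 in Dox, and 2.93, 20.7 and 5.05 in Tc. Every Dox library of this receptor was below every Control library, as for 17.1% of all genes. Its log2 fold change with Dox was -2.53 by limma (adjusted p = 0.0734) and -2.79 by DESeq2 (adjusted p = 0.0225, or 0.558 without libraries 3). The Ccr3 mean of 11.3 reached the limit of 10 mainly through the Control libraries, so a lower level with Dox was favoured in advance. The 3 eosinophil markers, none of them readable, summed to 6.35 to 39.8 in Control, 0.880 to 6.90 in Dox and 0.977 to 7.19 in Tc, and their part was not tested.

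Ccl5 (ENSMUSG00000035042, chr11:83525778-83530518, minus strand), a T cell and NK cell product that calls further T cells, had 7.41, 12.4 and 5.09 in Control, 4.21, 5.75 and 0.880 in Dox, and 1.95, 7.19 and 5.90 in Tc, or 1 to 14 recovered reads per library. Its groups overlapped in every comparison, and it was not tested.

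The spread between libraries of a group set how far these differences could be read. Between libraries 1 and 2, Cxcl1, Cxcl9, Cxcl10, Cxcl12, Cxcl13 and Ccl6 differed over 2-fold in Dox on the log2(normalized count + 1) scale, 6 of 9 genes beside 35.2% of all genes tested. In Control these were Cxcl9, Cxcl13 and Ccl24, beside 4.84% of all genes, and in Tc Cxcl1, Cxcl13 and Ccl6, beside 8.45%. Of the 6 genes in Dox, 4 were higher in library 2 (Cxcl1, Cxcl10, Cxcl13 and Ccl6) and 2 were lower (Cxcl9 and Cxcl12). The median absolute log2 gap over the 9 genes was 2.04 in Dox, 0.87 in Control and 0.49 in Tc, beside 0.70, 0.22 and 0.26 over all genes.

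**Figure D3:**
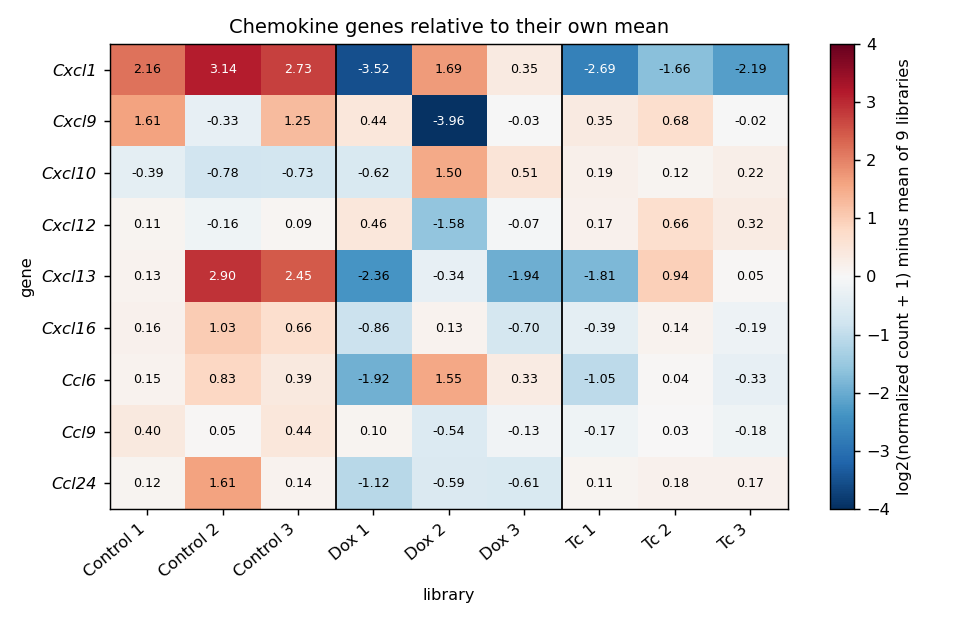
Heat map of log2(normalized count + 1) of the 9 readable chemokine genes (rows) in the 9 libraries (columns), each gene minus its own mean; red is above and blue below that mean, with the value in each cell. Cxcl9 reads -3.96 and Cxcl10 reads 1.50 in Dox library 2, and Cxcl1 is above its mean in every Control library and below it in every Tc library.

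Levels of different genes were compared as mean normalized counts per kilobase of exons. In Control the order began with Cxcl1 at 423, Cxcl12 at 274 and Ccl9 at 256, and ended with Ccl24 at 17.6, Ccl5 at 8.64 and Cxcl10 at 7.94. No neighbours in that order had library ranges apart from each other. In Tc, Cxcl12 at 357 stood apart from Ccl9 at 192, and Ccl9 from Ccl6 at 40.3, while Cxcl1 came at rank 7 with 14.2. In Dox the order began with Cxcl12 at 241, Ccl9 at 184 and Cxcl1 at 97.3, and no neighbours were apart. Cxcl12 and Ccl9 were thus among the first 3 genes in each group.

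Genes whose course over the 9 libraries was most like that of a chemokine gene were found by the mean absolute difference of centred log2(normalized count + 1) among 9378 genes with a mean of at least 50, for the 3 chemokine genes that varied most. Nearest to Cxcl1 were Cyp17a1 (0.67), Treh (0.98) and Rgs16 (1.06), beside a median of 2.25 over all genes. Cyp17a1, a steroid hydroxylase, had 2786, 2116 and 2486 in Control, 36.9, 2613 and 898 in Dox, and 151, 501 and 254 in Tc. Like Cxcl1 it was low in Dox library 1 and in all Tc libraries. Nearest to Cxcl13 were Itgam (0.68), Armcx4 (0.68) and Itgb2 (0.71), beside a median of 1.51, and Itgam and Itgb2 encode the subunits of the myeloid integrin Mac-1. Itgam had 75.2, 161 and 106 in Control, 8.42, 21.9 and 15.0 in Dox, and 36.1, 63.8 and 40.4 in Tc. Nearest to Cxcl9 were Fam25c (0.33), Aqp4 (0.34) and Cyp2a4 (0.38), beside a median of 1.0. Aqp4, a water channel, had 203, 53.1 and 142 in Control, 45.3, 4.60 and 37.0 in Dox, and 66.4, 88.1 and 76.6 in Tc. As for Cxcl9, Dox library 2 was its lowest.

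Of 26 other chemokine ligand genes in the data, 4 were readable (Ccl25, Cxcl14, Pf4 and Ppbp) and 5 had no read in any library. Limma and edgeR each called 1 of these 4 lower with Dox, Ppbp by limma, and DESeq2 called 2, Ppbp and Cxcl14. With Tc limma and edgeR called 0, with 1 and 2 genes whose unadjusted p was under 0.05, whereas DESeq2 called Ppbp. Without libraries 3, limma called none of these genes with either drug, and DESeq2 called only Ppbp, with Dox. Ppbp, a platelet chemokine that yields a Cxcr2 ligand, had 19.1, 68.1 and 61.0 in Control, 2.11, 1.15 and 0 in Dox, and 2.93, 11.7 and 6.74 in Tc. All drug libraries were below all Control libraries, and with Dox the log2 fold change was -4.55 (SE 0.69, limma adjusted p = 0.0114), with a DESeq2 adjusted p of 0.0317 without libraries 3. Ppbp reached the limit for a readable gene mainly through the Control libraries, so a lower level with either drug was favoured in advance. Of 22 chemokine receptor genes 6 were readable. Limma and edgeR called 0 of them with Dox, with 3 and 2 at an unadjusted p under 0.05, and 0 with Tc, with 1 in each. DESeq2 called 2 lower with Dox (Ccr2 and Ccr3) and 1 lower with Tc (Cxcr4), and none of these without libraries 3. Of 7 genes of proteases that cut chemokines 5 were readable. Limma called 0 of them with Dox or Tc, with 3 and 0 at an unadjusted p under 0.05. DESeq2 called Mmp9 lower with Dox (adjusted p = 0.00512; 0.371 without libraries 3) and 0 with Tc, and edgeR called 1 and 0.

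With Dox, limma called 1 of 22 readable genes of the interferon axis and 0 of 21 of the NF-kB, IL-1 and TNF axis. Both axes act on the inducible genes, and these counts were near the 5.00% of all genes that limma called. By limma all 22 readable genes of the interferon axis were nevertheless below 0 with Dox. Of them, 11 had an unadjusted p under 0.05, beside 29.1% of all genes. Of 22 readable genes of the interferon axis, limma called 1 lower with Dox, Gbp7 (-1.46, SE 0.32, adjusted p = 0.0313), and 0 with Tc, where 1 gene had an unadjusted p under 0.05 and neither DESeq2 nor edgeR called any. With Dox, DESeq2 called 2 of the list lower (9.37% of all genes), Gbp7 (adjusted p = 9.18e-04) and Irf8 (adjusted p = 0.0246). Without libraries 3 neither limma nor DESeq2 called any gene of the list (by DESeq2, adjusted p = 0.271 for Gbp7 and 0.596 for Irf8). The list medians by limma were -0.76 and -0.04, the latter 0.03 by DESeq2. Of 21 readable genes of the NF-kB, IL-1 and TNF axis limma, DESeq2 and edgeR called 0 with either drug. At an unadjusted p under 0.05 limma had 1 with Dox and 0 with Tc, and the limma medians were 0.01 and -0.32. By limma 11 of the 21 were above 0 with Dox, and 19 of the 21 were below 0 with Tc. In Dox against Tc, limma called 0 genes of either axis. There all 22 of the interferon axis were below 0 by limma (median -0.64). Of the NF-kB, IL-1 and TNF axis, 17 of the 21 were above 0 (median 0.44). DESeq2 called 3 of the interferon axis lower and 2 of the NF-kB, IL-1 and TNF axis higher (5.03% of all genes). The latter were Nfkbiz (adjusted p = 0.0173) and Tnfaip3 (adjusted p = 0.0497). Without libraries 3 neither test called any of these. Tnfaip3, an NF-kB target that feeds back on it, had 115, 149 and 132 in Control, 28.4, 539 and 187 in Dox, and 43.0, 78.2 and 53.9 in Tc. Dox library 2 was its highest and Dox library 1 its lowest, and the Tc libraries were below all Control libraries.

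Of 10 acute phase genes, limma called 7 lower with Dox (median -2.66) and 0 with Tc (median -0.28, and 0.12 by DESeq2), and DESeq2 called 10 and 0, beside 5.00% and 9.37% of all genes with Dox. Without libraries 3, DESeq2 called 4 of them with Dox (1.16% of all genes) and limma 0 (0%), with 6 at an unadjusted p under 0.05. With Tc, edgeR also called 0, and none had an unadjusted p under 0.05 by any of these tests. Saa1, serum amyloid A, had 16764, 23519 and 17981 in Control, 281, 36.8 and 190.0 in Dox, and 1695, 30975 and 13224 in Tc. Tc library 2 was its highest, although Cxcl1 was low in that library, at 36.9. The log2 fold change of Saa1 with Dox was -7.24 (SE 1.05, limma adjusted p = 0.0103), with a DESeq2 adjusted p of 9.96e-06 without libraries 3.

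**Figure D4:**
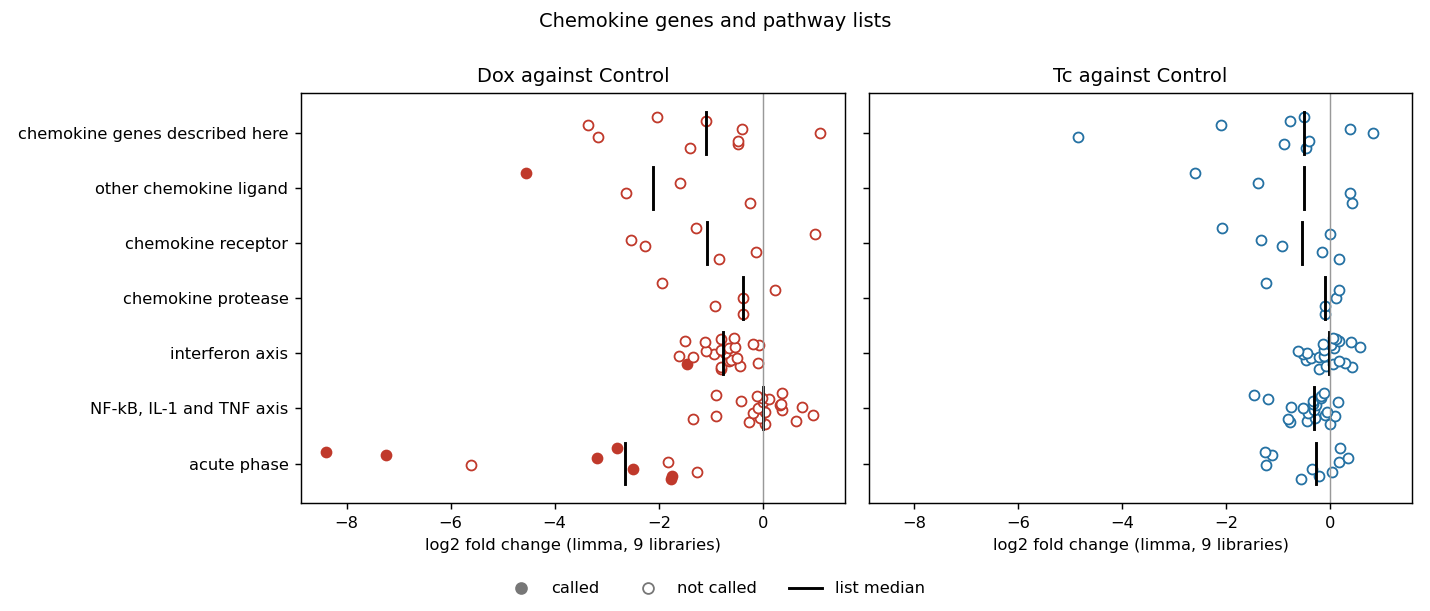
Limma log2 fold changes (x axis) against Control of the readable chemokine genes and of the readable genes of 6 related lists (y axis), with Dox at the left and Tc at the right; filled points were called, open points were not, and black lines are list medians. The acute phase median is -2.66 with Dox and -0.28 with Tc, and the median of the chemokine genes is -1.10 and -0.51.

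Marker genes of some, but not all, cells that make chemokines moved with the groups. The 6 Kupffer cell markers summed to 5933 to 11795 normalized counts in Control, 1591 to 5594 in Dox and 2808 to 5769.7 in Tc, so that all drug libraries were below all Control libraries. Clec4f, the defining Kupffer cell lectin, fell by 1.85 on the log2 scale with Dox (SE 0.26, limma adjusted p = 0.00958), and DESeq2 also called it without libraries 3. Limma called 2 of the 6 Kupffer cell markers lower with Dox and 0 with Tc, where 3 had an unadjusted p under 0.05 and DESeq2 and edgeR called 0. Without libraries 3 DESeq2 called 1 with Dox (Clec4f) and limma 0, with 2 at an unadjusted p under 0.05. The 5 monocyte markers summed to 128 to 261, 43.2 to 127 and 62.5 to 101, again without overlap with Control. The 5 sinusoidal endothelial markers summed to 3379.5 to 3581 in Control, 1722 to 2064 in Dox and 2740.1 to 3104 in Tc, and the 6 stellate cell and fibroblast markers to 2843 to 3107, 2318 to 3473 and 2747 to 3284. The stellate cell and fibroblast sums overlapped across groups, and limma called 0 of those 6 markers with either drug, with 1 at an unadjusted p under 0.05 in each, as did DESeq2 and edgeR. The 6 hepatocyte markers summed to 1105837 to 1576673 in Control, 591329 to 794050 in Dox and 775075 to 1234403 in Tc. All Dox libraries were thus below all Control libraries in this sum. Its largest part was Alb, at 956160 to 1408836 in Control and 255547 to 607452 in Dox. By limma, 3 of the 6 markers were above 0 and 3 below 0 with Dox, with a median log2 fold change of -0.02. Limma called 0 of these 6 markers with either drug, with 0 at an unadjusted p under 0.05. With Dox, DESeq2 called Alb lower (-1.45, adjusted p = 0.00117) and Tat higher (2.27, adjusted p = 0.00626), and neither without libraries 3. Kupffer, monocyte and neutrophil marker sums were lowest in library 1 of each group, where Cxcl1, Cxcl13, Cxcl16, Ccl6 and Ccl24 were also lowest. The part of these cell types in the chemokine values was not tested.

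**Figure D5:**
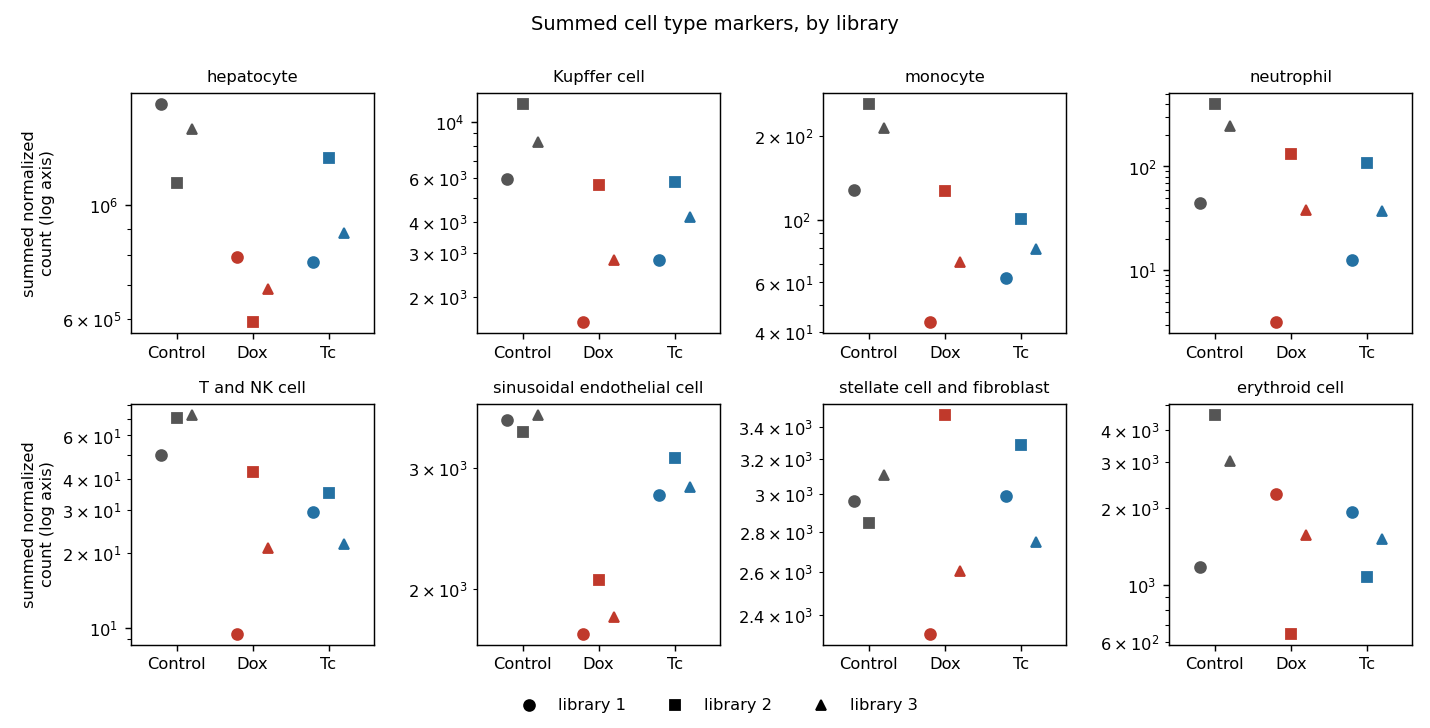
Summed normalized counts of marker genes of 8 cell types (y axis, log scale) in each library of Control, Dox and Tc (x axis); circles, squares and triangles are libraries 1, 2 and 3. The Kupffer cell sum is 5933 or more in each Control library and 5769.7 or less in each library of either drug.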

How the data were processed

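Liver RNA was sequenced single-end on 9 libraries, 3 each of Control, Dox and Tc, assigned by their titles. The authors trimmed reads with cutadapt, aligned them to mm10 with STAR 2.7.11ac, counted unique reads per gene with HTSeq 2.0.5 and normalized them with DESeq2 1.42.0. The authors deposited these normalized counts, which are a signal and not whole reads. Symbols were found for 32158 of 32285 identifiers, and coordinates are from GENCODE on GRCm38, the same build.

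Log2(normalized count + 1) of 12100 genes (mean 10 or higher) was fitted with limma 3.58.1 (trend, 1 model of 9 libraries) in R 4.3.3, with Benjamini-Hochberg adjustment. This normalized unit makes limma the first test. Every value was a whole multiple of 1 read (100.0% within 0.01 read), and the recovered reads were tested with DESeq2 1.42.0 and edgeR 4.0.16. Scripts were tested on simulated data. Depth was 7426136 to 12183041 reads, and low counts limit precision most for Ccl5 and Ccl24. The members and gene lists were chosen with earlier results of these data known. All 10 members are named, with list genes called in a comparison, receptors of members, abundant list genes and the 3 nearest genes of the 3 most variable members. Other list genes were named after their values were seen, and some genes are not reported here. Deviations from the group means correlated between Dox and Tc libraries of the same number in the titles (r = 0.29, 0.32 and 0.18). Those of Control libraries did not correlate with the drug libraries (-0.08 to 0.06). Libraries of unlike number were not compared and library 3 resembled a mixture of the others, so these values do not show that libraries are paired. Library 3 was fitted as a sum of libraries 1 and 2, with weights of 58.6% and 40.9% in Control, 61.3% and 34.4% in Dox, and 59.8% and 36.9% in Tc. Alternatives covered the pseudocount, the filter, the scaling, the test, the groups fitted, a replicate block and libraries left out. The sequences are RefSeq promoters of GRCm38.p6.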

Additional observations from a re-analysis of the deposited data

How the results depend on the processing

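Over 588 alternative values, 551 kept their direction and side of the threshold, 24 passed it only under the alternative and 13 changed sign. The number of chemokine genes called, 0 in each comparison by limma, was 4 for Dox, 1 for Tc and 1 for Dox against Tc with DESeq2, and 1 for Dox with edgeR. With the replicate number as a block it was 2 for Dox, Cxcl13 and Cxcl16 (4.60% of all genes), although Control libraries share only a number with the drug libraries. With only the 2 groups compared it was 0 for Dox and 1 for Tc (2.28%). With the block as well, chosen after seeing the data, it was 0 for Dox (Cxcl13 adjusted p = 0.0876, Cxcl16 0.116, limma) and 2 for Tc, Cxcl1 and Cxcl13 (limma adjusted p = 1.16e-04 and 0.00790, beside 2.75% of all genes). Leaving out 1 library at a time, the lowest and highest counts were 0 and 3 with Dox, 0 and 1 with Tc, and 0 and 1 in Dox against Tc. Calls appeared only without Dox replicate 1 or Dox replicate 2, where 12.4% and 9.11% of all genes were called with Dox. With Tc these fits called at most 1.83% of all genes. The call in Dox against Tc was Cxcl1, without Dox replicate 1, where 11.3% of all genes were called in that comparison. DESeq2 without Dox replicate 2, also chosen after seeing the data, called 3 for Dox (9.58% of all genes) and 1 for Tc (3.34%). The block changed no other call.

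The sign changed without Dox replicate 2 for Cxcl12 with Dox (0.19, and 0.21 by DESeq2) and, in Dox against Tc, for Cxcl10 (-0.23, and -0.10 by DESeq2), Ccl6 (-0.35) and Ccl9 (0.10, and 0.10 by DESeq2). Ccl6 with Dox changed sign with DESeq2 (0.09, and 0.16 without libraries 3), edgeR (0.06) and without Dox replicate 1 (0.49). Ccl24 with Tc changed sign without Control replicate 2 (0.02), and Ccl9 in Dox against Tc with the same total per library (0.10). Leaving out 1 library at a time, the values ran from -0.83 to 0.19 for Cxcl12 and -1.25 to 0.49 for Ccl6 with Dox, from -0.73 to 0.02 for Ccl24 with Tc, and in Dox against Tc from -0.23 to 0.83 for Cxcl10, -0.35 to 1.39 for Ccl6 and -0.22 to 0.10 for Ccl9. None of the 13 values was called, and the cause was not tested.

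With 2 libraries per group left once libraries 3 are set aside, a count of 0 says little about stability. Depth limits Ccl24, with 5 to 9 reads per Dox library, and Ccl5 could not be tested.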
